A study of Homo sapiens with 43 samples.

Results

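The genes described here are 46 factors of cytosolic translation: initiation factors, elongation factors, release factors and the kinases that act on eIF2. They were listed by name, with earlier results of these data known, and make up 46 of the 58347 gene entries of the deposited count tables. They were grouped by complex into 5 factors of scanning and subunit joining, 3 subunits of eIF2, 5 subunits of eIF2B, 13 subunits of eIF3, 9 factors of the eIF4 group, 6 elongation factors, 2 release factors and 3 eIF2 kinases. All samples came from HEL, a leukemia line of the erythroid lineage. The line carried 1 of 3 U2AF1 transgenes, introduced by stable transduction: the unmutated form (WT), the S34F substitution or the Q157R substitution. U2AF1 is the small subunit of the splicing factor that recognises the acceptor end of introns. Expression was switched on with doxycycline at 1 µg/ml for 48 hours (induced), and uninduced cells received none. Each line has 2 induced RNA-seq libraries. The uninduced state is covered by 2 libraries in WT and by 1 each in S34F and Q157R. All groups carry a transgene, so no untransduced cells enter any comparison. Replicates are called biological in the labels, which name no separate cultures for them, so p-values measure the spread between these libraries, which may be technical in part.

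In eukaryotic initiation, eIF2 carries the initiator tRNA to the small ribosomal subunit, eIF3 and eIF1 help that complex scan the messenger RNA, and the eIF4 factors bring it to the cap. eIF2B reloads eIF2 with GTP after each round, and kinases such as EIF2AK1 and EIF2AK3 slow initiation by phosphorylating eIF2. Many transcripts of ribosomal proteins and elongation factors begin with a C followed by a run of pyrimidines, the terminal oligopyrimidine (TOP) motif, which ties their translation to growth signalling through mTOR.

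RNA-seq libraries held 22392303 to 40370092 gene counts. The U2AF1 entry stood between 11.01 and 22.1 CPM in all 10 libraries. For RNA-seq and freCLIP, CPM (counts scaled to a common library total) include TMM scaling, which adjusts each total on the premise that most entries keep their level. Gene counts do not separate the transgene from the resident gene, and the build holds a near-identical copy of U2AF1, so this level does not check the labels. Erythroid and megakaryocyte markers were present in all libraries, with a summed level of 2492 to 4435 CPM and 12 of 14 markers at 10 CPM or more on average. Lymphoid markers summed to at most 2.32 CPM and granulocyte and monocyte markers to 21.7 to 54.1 CPM, most of it LYZ. Of 7 epithelial and stromal markers, KRT8 and KRT18 were present at 10 CPM or more, KRT19 was at 0 in all libraries, and EPCAM and COL1A2 were below 0.1 CPM. Reads outside annotated features made up 33.6% ± 0.14 (SD, n = 2) in induced S34F, 22.7% ± 0.0289 (n = 2) in induced WT and 25.1% ± 2.65 (n = 2) in induced Q157R. It was 19.2% ± 0.39 (n = 2) in uninduced WT.

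The first bases of 8 members are shown as examples of the start classes by which replicates are compared below. Each run holds 30 bases of RefSeq sequence (GRCh38.p14), of which 10 lie before the annotated start and 20 from it on. Capitals mark a C at the start base together with the unbroken run of C and T that follows it, where at least 4 such bases follow (the sense strand alone was read). The first 5 runs, from EIF2S3, EIF3D, EIF4B, EEF1A1 and EEF2, meet that rule, and the last 3, from EIF2S1, EIF2B3 and EIF3I, do not. These 8 do not represent their classes. In all 4 groups with 2 libraries, the first 5 were higher in replicate 2 and the last 3 lower. EIF4A2, EIF3K, EIF3F and EIF3M met the rule without being higher in every group, and EIF1 and EIF3C were higher in every group without meeting it.
EIF2S3: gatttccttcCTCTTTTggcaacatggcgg
EIF3D: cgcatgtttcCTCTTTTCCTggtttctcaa
EIF4B: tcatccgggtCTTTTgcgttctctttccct
EEF1A1: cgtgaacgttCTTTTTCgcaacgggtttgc
EEF2: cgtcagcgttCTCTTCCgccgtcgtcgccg
EIF2S1: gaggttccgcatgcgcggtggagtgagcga
EIF2B3: gctgtcagtcagaggcggcgtggagatcgc
EIF3I: ttccggtcttactcacgttgcggccttcct

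The EIF2S3 run lies at chrX:24054946-24054975 on the plus strand, that of EIF3D at chr22:36529147-36529176 on the minus strand and that of EIF4B at chr12:53006446-53006475 on the plus strand. The runs of EEF1A1 and EEF2 lie on the minus strand at chr6:73521013-73521042 and chr19:3985444-3985473. Those without a match lie at chr14:67360318-67360347 on the plus strand for EIF2S1, chr1:44986576-44986605 on the minus strand for EIF2B3 and chr1:32222397-32222426 on the plus strand for EIF3I. RefSeq gave a start sequence for 38 of the 46 members, and 10 of them met the rule in at least 1 start: EIF2S3, EIF3D, EIF3F, EIF3K, EIF3M, EIF4A2, EIF4B, EEF1A1, EEF1B2 and EEF2. Of the 35116 starts in the table, 4.07% met it. Counted per gene, 5.14% of the 27305 symbols had at least 1 matching start, as did 47 of 63 ribosomal protein genes with an entry. A match describes the annotated start only. The starts used in these cells were not measured in the files analysed.

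Levels between genes were compared per kilobase of annotated exon, as CPM per kilobase in induced WT (mean ± SD, n = 2). EEF2, the GTPase that moves the ribosome along the messenger, stood highest at 1065 ± 428, and EEF1A1, which delivers aminoacyl-tRNA, followed at 788 ± 314. These levels overlap within their spread. EEF1B2, the exchange factor for EEF1A1, stood at 221 ± 70.9, EIF1, which guards start codon choice, at 174 ± 98.0, EIF4B, the partner of the eIF4A helicase, at 162 ± 65.9, and EIF3I at 154 ± 4.94. The 3 eIF2 subunits differed in level, with EIF2S3 (gamma) at 109.5 ± 29.2, EIF2S2 (beta) at 98.0 ± 7.45 and EIF2S1 (alpha) at 20.1 ± 5.70. Subunits of eIF2B were lower than EIF2S3 and EIF2S2, between 7.29 ± 2.44 for EIF2B4 and 27.6 ± 7.47 for EIF2B1. Of the kinases, EIF2AK1, which responds to heme shortage, stood at 41.5 ± 6.36, against 9.90 ± 0.444 for EIF2AK4 and 7.94 ± 0.36 for EIF2AK3. The order below EEF2 and EEF1A1 depended on the length used. EIF3E and EIF5A stood at 97.0 ± 18.2 and 151 ± 30.5 per kilobase of annotated exon. Per kilobase of the longest transcript they stood at 293 ± 54.8 and 280 ± 56.9, against 271 ± 152 for EIF1 and 21.5 ± 0.965 for EIF2AK4.

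The levels of at least 5 members are uncertain, as entries on the same strand share their exonic bases or a near-identical copy exists. EEF1G had 0 counts in all 10 libraries. A read-through entry, AP002990.1, covers 99.93% of its exonic bases and itself held 3 to 15 counts, so a read from the gene falls in 2 entries. EEF1G (ENSG00000254772.9, chr11:62559601-62574086) was therefore not tested, and 45 members were. EIF4A1 stood at only 9.24 to 27.2 CPM beside a read-through entry and an overlapping transcript on the same strand. EIF3C, at 12.4 to 32.0 CPM, has a near-identical copy, EIF3CL, at 2.40 to 6.005 CPM. EIF3L shares 41.13% of its exonic bases with AL022311.1, which stood at 5.14 to 11.2 CPM against 114 to 191 CPM for EIF3L. EIF6 shares 17.41% with AL121753.1, which stood at 0.146 to 1.28 CPM. Copies of EEF1A1, EIF5A and EIF1AX also have entries and may take reads from these genes. EEF1A1P5 stood at 51.6 to 92.2 CPM, EIF5AL1 at 0.723 to 3.30 CPM and EIF1AXP1 at 0.230 to 0.858 CPM. Small RNA entries on the same strand lie in further members, with the largest share, 9.504%, in EEF1B2.

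The members took 1.81% to 2.34% of all gene counts in a library. EEF1A1 and EEF2 alone took 0.602% to 1.13%. The other 44 genes took 1.045% and 1.09% in the 2 induced S34F libraries and 1.14% to 1.28% in the other 8 libraries, so the induced S34F libraries were the lowest.

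The first question is how the translation factors stood in induced S34F against induced WT cells. Of the 45 tested, 40 had a negative log2 fold change, and the median was -0.47, against 0.00 over all 21300 entries tested and -0.16 over protein-coding entries. No member passed an adjusted p of 0.05 in the edgeR model with one mean per group, where 1.67% of all entries passed. At an unadjusted threshold of 0.05, 20 members were lower and 0 higher, beside 12.2% of all entries that were lower. DESeq2 called 9 members, all lower, beside 7.79% of entries called in either direction, and edgeR without a filter on low counts called 9, all lower, beside 3.91% called lower.

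Libraries with the same replicate number deviated together in this assay, and with that number as a block 24 of 45 members fell and 0 rose, beside 12.9% of all entries called lower and 9.56% called higher. In that model 3 of 3 eIF2 subunits, 2 of 5 eIF2B subunits, 10 of 13 eIF3 subunits, 2 of 9 eIF4 factors, 3 of 5 scanning and joining factors, 2 of 5 tested elongation factors, 2 of 2 release factors and 0 of 3 kinases fell. Of the 45 members, 26 were lower in both induced S34F libraries than in both induced WT libraries and 2 were higher in both, beside 27.3% and 28.9% of all entries. When only protein-coding entries entered the fit and its scaling, the median of protein-coding entries moved from -0.16 to -0.01, 34 members remained below zero with a median of -0.33, and 0 were called beside 0.939%. With the block in that fit, 12 fell and 2 rose, EIF4A1 (log2 fold change 0.97 ± 0.29 SE) and EIF2AK3 (0.48 ± 0.14), beside 12.9% and 12.1% of these entries. Values of other kinds moved with this comparison. As given above, more reads lay outside annotated features in induced S34F. The summed level of the 14 erythroid and megakaryocyte markers was 2492 and 2769 CPM in the induced S34F libraries against 3624 and 4435 in induced WT. Of the 14, 2 fell without the block, beside 1.67% of all entries called in either direction. With the block 8 fell, beside the 12.9% called lower. The 6 granulocyte and monocyte markers summed to 52.5 and 54.1 CPM in S34F against 34.9 and 44.3 in WT, with 0 of 3 tested called. The part of these in the result was not tested, and in bulk RNA fewer cells of a type and less RNA per cell cannot be told apart.

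**Figure D1:**
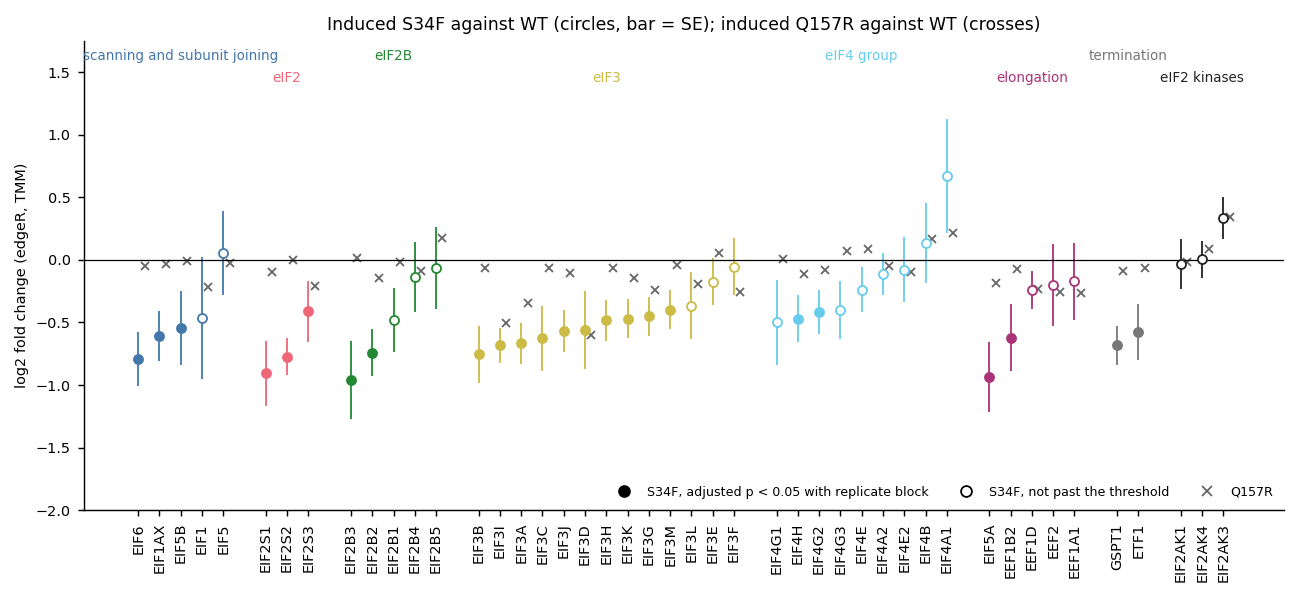
Log2 fold change of 45 translation factors in induced cells, by complex. Circles show S34F against WT with the standard error as a bar, filled where the adjusted p was below 0.05 with the replicate number as a block, and crosses show Q157R against WT. The eIF2, eIF2B and eIF3 circles lie below zero, of which EIF2B4, EIF2B5 and EIF3F turned positive when only protein-coding entries were scaled.

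All 3 subunits of eIF2 fell with the block. EIF2S2 (ENSG00000125977.6, chr20:34088298-34112332), the beta subunit, was measured at 246 and 274 CPM in induced WT, 148 and 156.9 in induced S34F and 252 and 267 in induced Q157R. Both S34F libraries lay below every other library, the uninduced ones at 225 to 283 CPM included. Its log2 fold change against WT was -0.77 ± 0.15 (SE), with an adjusted p of 0.0503 without the block, just outside the threshold, and 0.0020 with it. EIF2S1 (ENSG00000134001.12, chr14:67359997-67386516), the alpha subunit on which the kinases act, stood at 136 and 90.9 CPM in WT and 64.7 and 56.7 in S34F. The WT libraries differed by more than they did for EIF2S2, yet both lay above both S34F libraries, and the log2 fold change was -0.91 ± 0.26 (adjusted p = 0.097, and 0.0033 with the block). EIF2S3, the gamma subunit that binds GTP and tRNA, stood at 309 and 452 CPM in WT and 254 and 317 in S34F. Here the groups overlapped, the log2 fold change was -0.41 ± 0.25, and the adjusted p of 0.0499 with the block lay at the threshold.

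In eIF2B, EIF2B2 and EIF2B3 fell with the block. EIF2B3 (ENSG00000070785.16, chr1:44850522-44986722), the gamma subunit of the catalytic part, stood at 61.4 and 40.0 CPM in WT and 28.4 and 23.8 in S34F. Its log2 fold change of -0.96 ± 0.31 was the lowest of all 45 members, with an adjusted p of 0.12, and 0.0042 with the block. EIF2B2, the beta subunit of the regulatory part, stood at 45.98 and 40.3 CPM in WT and 27.7 and 23.9 in S34F (log2 fold change -0.74 ± 0.19, adjusted p = 0.078, and 0.0060 with the block). EIF2B5, the catalytic subunit and the most abundant of the complex in CPM, stood at 142 and 85.0 CPM in WT and 114 and 103 in S34F. Its S34F libraries lay between the WT libraries, and its log2 fold change of -0.07 ± 0.33, like that of EIF2B4 at -0.14 ± 0.28, turned positive when only protein-coding entries were scaled. EIF2B1, the alpha subunit, had -0.48 ± 0.26 and did not pass either fit.

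All 13 eIF3 subunits had negative log2 fold changes, from -0.75 for EIF3B to -0.05 for EIF3F, though those of EIF3E and EIF3F changed sign under other settings, and 10 fell with the block. EIF3I, a scaffold subunit with WD repeats, stood at 272 and 260 CPM in WT, 165.7 and 165.6 in S34F, and 190 and 186 in Q157R. The uninduced libraries of all 3 lines lay at 245 to 269 CPM, above all 4 induced libraries of both mutants. The log2 fold change in S34F was -0.68 ± 0.14 (adjusted p = 0.055, and 0.0036 with the block). EIF3A, the largest scaffold subunit, stood at 531 and 443 CPM in WT and 312 and 301 in S34F (-0.67 ± 0.16, adjusted p = 0.075, and 0.0062 with the block). EIF3J, the loosely bound subunit, stood at 193 and 171 CPM in WT and 127 and 118 in S34F (-0.57 ± 0.17, adjusted p = 0.107, and 0.0146 with the block).

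The other eIF3 subunits that fell with the block were EIF3B, EIF3C, EIF3D, EIF3G, EIF3H, EIF3K and EIF3M, with log2 fold changes of -0.75 to -0.40 without it. EIF3C shares sequence with EIF3CL. EIF3E, the most abundant subunit in CPM, did not pass: it stood at 505 and 660 CPM in WT and 464 and 567 in S34F, with overlapping groups and a log2 fold change of -0.18 ± 0.19. EIF3F and EIF3L did not pass either, at -0.05 ± 0.22 and -0.37 ± 0.27. The value of EIF3F turned positive when only protein-coding entries were scaled, and those of EIF3E and EIF3F turned positive without WT induced replicate 2.

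Among the factors of scanning and subunit joining, EIF6, EIF1AX and EIF5B fell with the block. EIF6, which keeps the large subunit from joining early, stood at 58.2 and 50.8 CPM in WT and 34.4 and 28.6 in S34F (-0.79 ± 0.21, adjusted p = 0.087, and 0.0047 with the block). EIF1AX, a scanning factor of the small subunit, stood at 86.6 and 77.02 CPM in WT and 50.8 and 56.5 in S34F (-0.61 ± 0.20, adjusted p = 0.129, and 0.026 with the block). EIF5B, the GTPase of subunit joining, stood at 350 and 209 CPM in WT and 216 and 167 in S34F, so that its groups overlapped (-0.54 ± 0.30, adjusted p = 0.31, and 0.022 with the block). EIF1 differed widely between the WT replicates, with 380 and 882 CPM in WT and 409 and 505 in S34F, and its log2 fold change of -0.47 ± 0.49 turned to 0.24 without WT induced replicate 2. EIF5, the GTPase activator of eIF2, had 0.05 ± 0.33, which turned to -0.29 without the same library.

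In the eIF4 group EIF4H and EIF4G2 fell with the block. EIF4H, a cofactor of the eIF4A helicase, stood at 271 and 322 CPM in WT and 199 and 229 in S34F (-0.47 ± 0.19, adjusted p = 0.187, and 0.0499 with the block). EIF4G2, a scaffold used without cap binding, stood at 1028 and 887 CPM in WT and 751 and 685 in S34F (-0.41 ± 0.17, adjusted p = 0.20, and 0.043 with the block). EIF4G3, a cap-complex scaffold, stood at 261 and 171 CPM in WT and 166 and 161 in S34F and did not pass (-0.40 ± 0.23). EIF4B was the most abundant of the group in CPM, at 707 and 1280 in WT and 985 and 1198 in S34F. Its S34F libraries lay within the range of WT, and its log2 fold change of 0.14 ± 0.32 turned to -0.23 without WT induced replicate 1 and to -0.0071 without S34F induced replicate 2. EIF4G1 stood at -0.50 ± 0.34 and EIF4E, which binds the cap, at -0.24 ± 0.18. EIF4A2 and EIF4E2 had -0.11 ± 0.17 and -0.08 ± 0.26, and both turned positive when only protein-coding entries were scaled. EIF4A1, an RNA helicase whose level is uncertain as stated above, stood at 24.3 and 9.24 CPM in WT and 26.4 and 27.2 in S34F. Its log2 fold change was 0.67, and 0.83 with the block (adjusted p = 0.066), so it did not pass. With single libraries left out it ranged from 0.12 to 1.53.

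Elongation factors did not move as one. EIF5A (ENSG00000132507.17, chr17:7306999-7312463), which relieves stalled ribosomes and carries hypusine, stood at 485 and 363 CPM in WT and 242 and 201 in S34F. Both S34F libraries lay below the other 8, which ranged from 288 to 642 CPM, and the log2 fold change was -0.93 ± 0.28 (adjusted p = 0.107, and 0.0015 with the block). EEF1B2 stood at 327 and 519 CPM in WT and 262 and 289 in S34F (-0.62 ± 0.27, adjusted p = 0.22, and 0.017 with the block). EEF1A1 stood at 3369 and 6011 CPM in WT and 3824 and 4507 in S34F, and EEF2 at 3070 and 5510 in WT and 3266 and 4185 in S34F. The S34F libraries of both genes lay inside the WT range, and their log2 fold changes of -0.17 ± 0.31 and -0.20 ± 0.33 turned positive without WT induced replicate 2. EEF1D, a subunit of the exchange complex, had -0.24 ± 0.15.

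Both release factors fell with the block. GSPT1, the GTPase eRF3a, stood at 262 and 245 CPM in WT and 160 and 156 in S34F (-0.68 ± 0.16, adjusted p = 0.066, and 0.0047 with the block). ETF1, the stop codon reader eRF1, stood at 361 and 287 CPM in WT and 230 and 204 in S34F (-0.58 ± 0.22, adjusted p = 0.172, and 0.026 with the block). The kinases showed other values. EIF2AK1, the most abundant of them, stood at 205 and 255 CPM in WT and 206 and 244 in S34F, with a log2 fold change of -0.03 ± 0.20 that turned to 0.11 when only protein-coding entries were scaled. EIF2AK4, which senses uncharged tRNA, had 0.00 ± 0.15, and its sign changed when the filter on low counts or a single library was left out. EIF2AK3, the kinase of the endoplasmic reticulum, stood at 44.6 and 41.8 CPM in WT and 56.4 and 52.6 in S34F, without overlap (0.34 ± 0.17, adjusted p = 0.27, and 0.12 with the block).

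**Figure D2:**
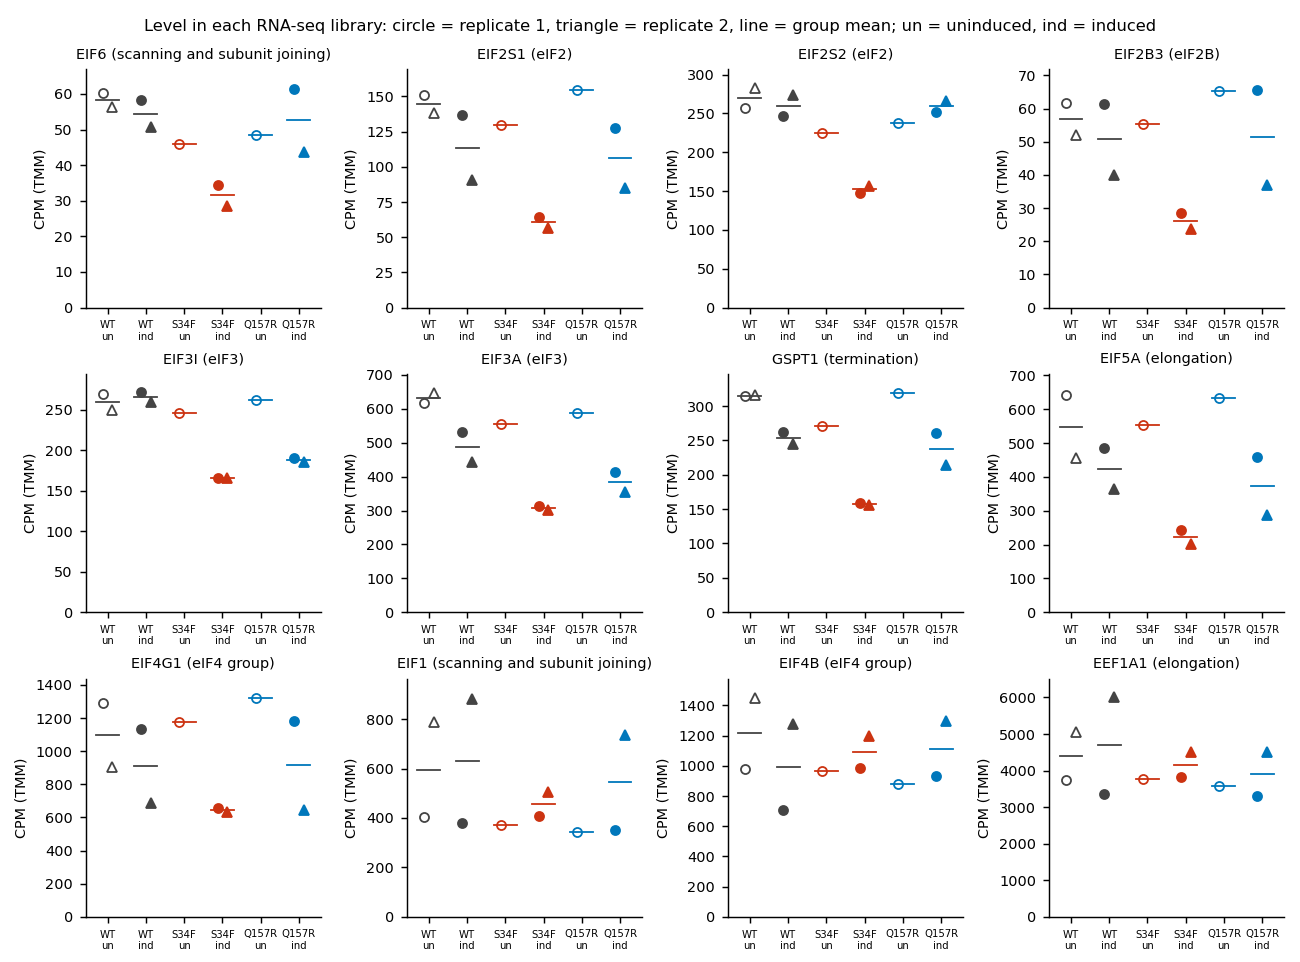
CPM of 12 translation factors in each of the 10 RNA-seq libraries, with circles for replicate 1, triangles for replicate 2, lines for group means and open symbols for uninduced cells. For EIF6, EIF2S1, EIF2S2, EIF2B3, EIF3I, EIF3A, GSPT1 and EIF5A both induced S34F libraries lie below the other 8. For EIF1, EIF4B, EEF1A1 and EIF2S2 the triangle lies above the circle in every group with 2 libraries.

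The number of calls depended on single libraries. Leaving out each induced S34F or WT library in turn from the blocked fit, a lone remaining library being assumed to vary like the other groups, left 4 to 12 members lower. It left 5 lower, EIF1 among them, without S34F replicate 1, 12 without S34F replicate 2, 4 without WT replicate 1 and 7 without WT replicate 2, beside 3.48%, 7.92%, 3.45% and 3.97% of all entries. EIF4A1 was called higher without S34F replicate 1 and without WT replicate 1. EIF5A and EIF2S2 were called in each of these 4 fits and in the blocked fit of protein-coding entries, and all 24 stayed below zero in each of the 5.

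The second question is whether the 2 substitutions differed from each other. In induced S34F against induced Q157R, 38 of 45 members were below zero, with a median of -0.32 against 0.00 over all entries and -0.12 over protein-coding entries. No member was called in the edgeR model without the block, where 0.559% of entries passed. At an unadjusted threshold of 0.05, 13 members were lower and 0 higher, beside 11.2% of all entries that were lower. DESeq2 called 3 members, all lower, beside 6.25% called in either direction, and edgeR without a filter called 6, all lower, beside 3.43%. With the block 16 members fell and 0 rose, beside 11.5% of entries called lower. The 5 with the lowest adjusted p were EIF2S2 (-0.77 ± 0.12), EIF2B3 (-0.93 ± 0.17), EIF5A (-0.72 ± 0.14), EIF2S1 (-0.78 ± 0.16) and EIF6 (-0.73 ± 0.15) in the blocked fit. Here too the number depended on single libraries. In the blocked fit 1 member was called without S34F replicate 1 (beside 2.42% of entries called lower), 9 without S34F replicate 2 (6.68%), 1 without Q157R replicate 1 (3.13%) and 11 without Q157R replicate 2 (8.64%). In the blocked fit of protein-coding entries 9 were called, beside 12%. EIF3I, at 188 ± 3.25 CPM (SD, n = 2) in Q157R and 166 ± 0.0141 (n = 2) in S34F, did not pass.

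In induced Q157R against induced WT, 35 of 45 members were below zero with a median of -0.07, against -0.01 over all entries. None was called, and 0% of all entries passed in this edgeR fit. At an unadjusted threshold of 0.05, 1 member was lower and 0 higher, beside 1.55% of entries that were lower. DESeq2 and the blocked fit called 0 members, beside 0.0141% and 0.0188% of entries. For 5 members both Q157R libraries lay below both WT libraries, beside 13.4% of entries. The members with the lowest p-values were EIF3I (-0.50 ± 0.14, adjusted p = 0.9999, and 0.27 with the block) and EIF3A (-0.34 ± 0.16). Both comparisons with WT share the WT libraries, so their values are given side by side and no likeness between them was tested.

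The third question concerns induction within each line. In S34F, induced against uninduced, 36 of 45 members were below zero with a median of -0.33, against 0.06 over all entries and -0.13 over protein-coding entries. The uninduced side is 1 library. No member was called in the edgeR model with one mean per group and the filter on low counts, where 1.96% of entries passed, while 15 were lower and 0 higher at an unadjusted threshold of 0.05, beside 13.1% of entries that were lower. DESeq2 called 5 members, all lower, beside 8.69% called in either direction. The fit without a filter called 10 and the fit of the compared groups alone called 14, all lower, beside 4.67% and 12.1% called lower. With the block 14 fell and 0 rose, beside 11% of entries called lower. EIF5A had the lowest value, from 552 CPM uninduced to 242 and 201 induced, with a log2 fold change of -1.32 without the block and -1.09 ± 0.17 (SE, adjusted p = 0.0023) with it. EIF3A (-0.80 ± 0.17), EIF2S1 (-0.91 ± 0.19) and GSPT1 (-0.73 ± 0.16) followed in the blocked fit. In the blocked fit without S34F induced replicate 1, 0 members were called lower and EIF4A1 was called higher, beside 1.87% of entries called lower. Without replicate 2, 11 members were called lower, beside 9.96%, and among protein-coding entries only 8 were, beside 10.9%. Within replicate 1 alone, 37 of 45 members were lower after induction, with a median log2 ratio of -0.38 against -0.16 over protein-coding entries.

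In WT, 31 of 45 members were below zero after induction with a median of -0.10. In Q157R 30 were, with a median of -0.16. Neither fit called a member, and 0% of entries passed in either without the block. At an unadjusted threshold of 0.05, 1 member in WT and 5 in Q157R were lower, beside 2.61% and 3.75% of entries. DESeq2 called 0 members in both, beside 0.155% and 0.347%, and the blocked fit called 0 in both, beside 0.418% and 0.263%. Below zero after induction in all 3 lines were 26 of 45 members, beside 33.8% of protein-coding entries and 26.1% of all entries tested. The lowest of these in WT were EIF3J (-0.50), EIF1AX (-0.41), EIF3A (-0.38) and EIF5A (-0.37), and none of them passed there. The difference in induction between S34F and WT was tested directly. Its median over members was -0.27, 36 were below zero, and no member was called in edgeR, with 0% of entries called, or with the block, where 0.704% were called. At an unadjusted threshold of 0.05, 2 were lower and 0 higher, beside 4.43% of entries that were lower, and DESeq2 called 0 members beside 0.127%. The members with the lowest p-values were EIF3I (-0.61 ± 0.22) and EIF2B2 (-0.75 ± 0.29). For Q157R against WT the median of that difference was -0.11, with 0 members called in edgeR, with the block or in DESeq2, beside 0%, 0.00469% and 0% of entries, and 1 member lower at an unadjusted threshold of 0.05, beside 0.493%. A difference in induction between the lines was therefore not shown.

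The lines were also compared before induction. Uninduced S34F, 1 library, against 2 uninduced WT libraries gave 33 of 45 members below zero with a median of -0.15, and Q157R gave 22 below zero with a median of 0.02, which was -0.05 with the block. No member and 0% of all entries were called in either comparison by edgeR, with or without the block, no member had an unadjusted p below 0.05 in the fit without it, beside 0.371% and 0.606% of entries that were lower at that level, and DESeq2 called 0 members beside 0% of entries. The same comparison within replicate 1 gave a median of -0.11 for S34F, with 38 of 45 members below zero, and -0.03 for Q157R, with 28 of 45. The medians over protein-coding entries were 0.0012 and 0.0056. Each side is 1 library here, so no test was made.

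**Figure D3:**
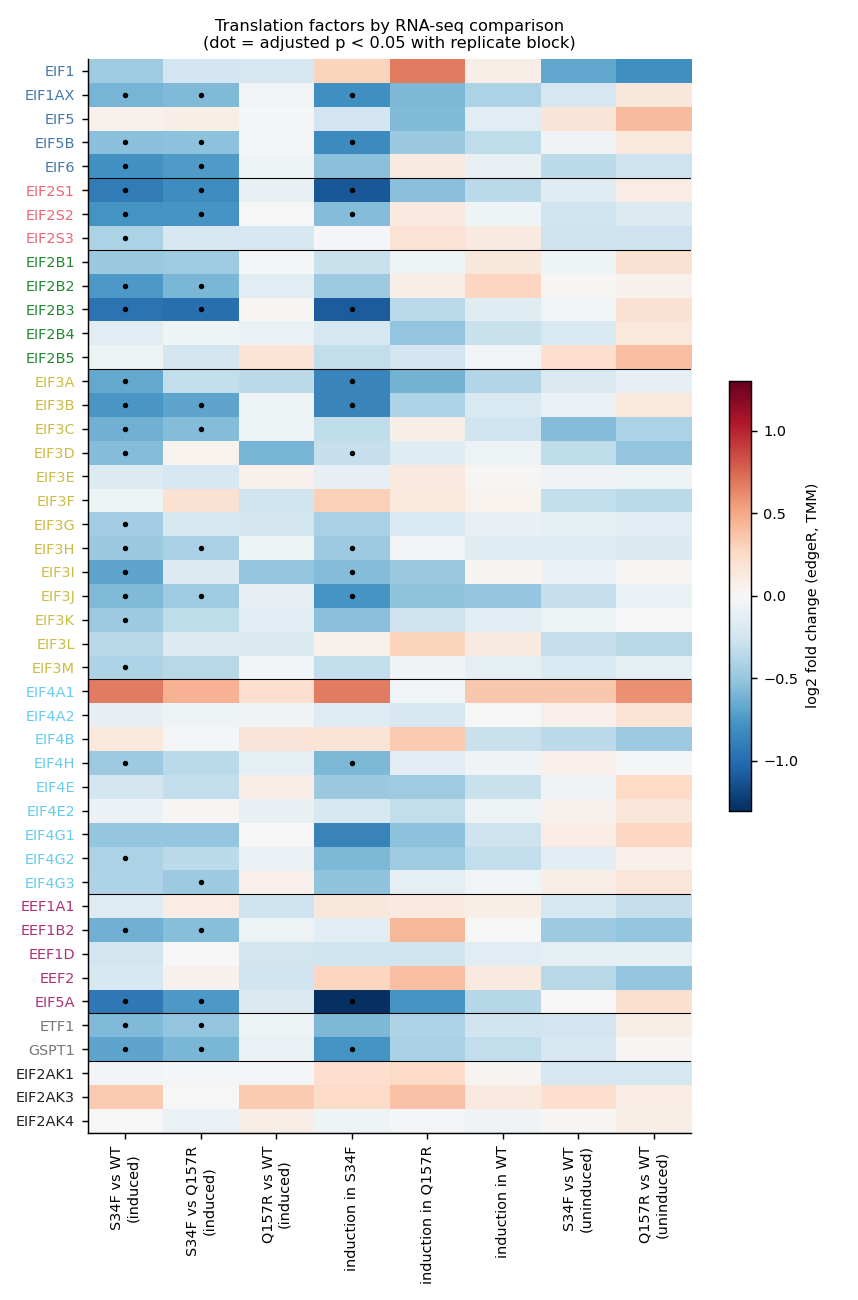
Log2 fold change of each translation factor in 8 RNA-seq comparisons, with blue for lower and red for higher and a dot where the adjusted p was below 0.05 with the replicate block. Dots stand in the columns of S34F against WT (24), S34F against Q157R (16) and induction in S34F (14), and in no other column. Columns that share libraries are not independent of each other.

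Related lists were read in the same fits of induced S34F against WT, in which the median of protein-coding entries was -0.16 without the block. Beside their counts stand 1.67% of all entries called in either direction without the block and 12.9% called lower with it. Of 43 other translation factors and regulators tested, 1 fell, ABCE1, the ribosome recycling ATPase (-1.02 ± 0.17, adjusted p = 0.044), and 10 fell with the block. The median of this list was -0.27, with 35 of 43 below zero. Of 12 mitochondrial translation factors 0 were called and 3 fell with the block. TUFM, the mitochondrial elongation factor, had -0.78 ± 0.19 (adjusted p = 0.073, and 0.0044 with the block), and GFM1 had -0.20 ± 0.28. Of 79 cytosolic ribosomal proteins 0 were called and 4 fell with the block, a smaller share than that of all entries, and the median was -0.25 with 72 below zero. RPS6 and RPL4, the most abundant of them, had -0.24 ± 0.21 and -0.33 ± 0.22. Of 25 tested genes of the ATF4 list, which lies downstream of the eIF2 kinases, 0 were called and 13 fell with the block, with a median of -1.23. SLC7A5 and MTHFD2, the most abundant of these, had -0.83 ± 0.37 and -1.15 ± 0.59, and both passed with the block (adjusted p = 0.0090 and 0.0018).

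Replicates 1 and 2 differed in their medians by the start class, with exceptions in both classes. In uninduced WT, the 10 members whose start met the pyrimidine rule had a median log2 difference of 0.44 between replicate 2 and replicate 1, and 8 of them were higher in replicate 2. The 27 tested members without such a start had -0.13, and 6 of them were higher. In induced WT the medians were 0.61, with 9 of 10 higher, and -0.33, with 4 of 27 higher. Induced S34F gave 0.19 and -0.12, and induced Q157R gave 0.30 and -0.50. EIF1 does not meet the rule, yet it had the highest difference of all 45 members in both WT groups, 0.96 and 1.21. EIF3C does not meet it either and was higher in replicate 2 in every group. Its differences were 0.66 in uninduced WT, 0.23 in induced WT, 0.35 in induced S34F and 0.16 in induced Q157R.

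Over all tested protein-coding genes, the 808 with a matching start had a median difference of 0.15 in induced WT and the 9884 without one had -0.03. Uninduced WT gave 0.08 and 0.01 for the same sets, S34F after induction 0.07 and -0.01, and Q157R after induction 0.07 and -0.07. The median log2 fold change in induced S34F against WT was -0.30 for the matching members and -0.50 for the others. Between the same groups, the median log2 difference over all tested protein-coding genes was -0.16 with a matching start and -0.14 without one. With the block 5 of 10 and 15 of 27 members fell, beside 12.9% of all entries called lower. These are descriptions of the same libraries, with no test. EEF1A1, EEF2, EIF4B and EIF2S3, whose starts are printed above, were each higher in replicate 2 than in replicate 1 in all 4 groups with 2 libraries, and EIF3D and EEF1B2 were too. Other matching members did not follow: EIF4A2 had -0.11 in uninduced WT, -0.17 in induced WT, 0.12 in induced S34F and -0.28 in induced Q157R. EIF3K had -0.09, 0.01, -0.10 and -0.25 in the same order. The values of EIF3F and EIF3M were below zero in 1 group each, induced S34F for EIF3F and induced Q157R for EIF3M.

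**Figure D4:**
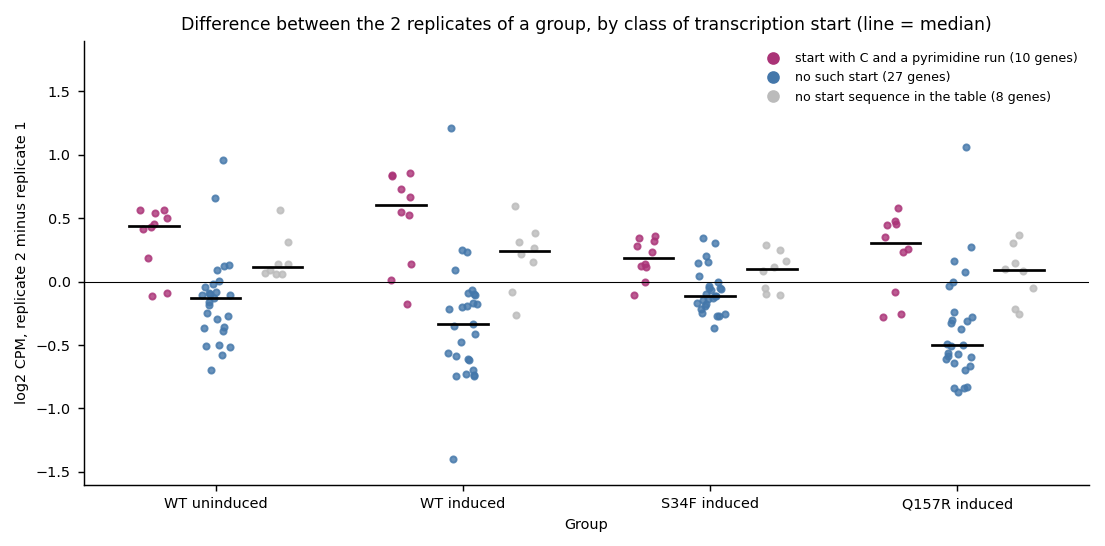
Log2 CPM of replicate 2 minus replicate 1 for 45 translation factors in the 4 RNA-seq groups with 2 libraries, by class of annotated start. Each point is a gene and the line is the median. In induced WT the medians lie at 0.61 for starts with a C and a pyrimidine run and -0.33 for starts without, and the gap is smallest in induced S34F.

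Crosslinking of U2AF to these transcripts was read from CLIP counts, in which RNA bound to the protein is sequenced after ultraviolet crosslinking and immunoprecipitation. Induced WT cells gave 3 U2AF1 and 4 U2AF2 eCLIP libraries, of which 3 are marked technical repeats. U2AF1 freCLIP, which divides the crosslinked material by size into a light and a heavy fraction, gave 17 libraries of 38415 to 730996 gene counts. Counts are per gene entry and do not place a read within the gene. Gene entries held 0.856% to 1.91% of the reads of a CLIP library. Reads outside annotated features made up 54.8% ± 5.23 (SD, n = 7) in eCLIP and 49.3% ± 10.7 (n = 17) in freCLIP. Counts and ranks therefore describe only the small part of reads assigned to gene entries. Over all freCLIP libraries the members held 5214 counts, of which EIF2B4, EIF5B and EIF2B2 held 47.4%. The same 3 genes held 46.8% of the 6090 member counts in eCLIP.

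The order of members by crosslink counts differed from the order by RNA. EIF2B4 (ENSG00000115211.15, chr2:27364352-27370486) ranked 1 of 46 in freCLIP with 1199 counts and 1 in eCLIP with 1189, but 42 in mean RNA level in CPM. EIF2B2 ranked 3 in freCLIP with 463 counts and 43 in RNA. EEF1A1, the first in RNA, ranked 27 in freCLIP with 16 counts, and EEF2, the second in RNA, ranked 20 with 42. EIF1AX, EIF3C and EEF1G had 0 counts over the 17 libraries. Their reads may fall to the copy or overlapping entry named above, so no limit is given. No removal of duplicate molecules is stated in the sources used here. In U2AF1 eCLIP, where CPM use the plain library total, EIF2B4 stood at 248 and 264 CPM in the 2 biological replicates with technical repeats summed, and in U2AF2 eCLIP at 247 and 206.

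**Figure D5:**
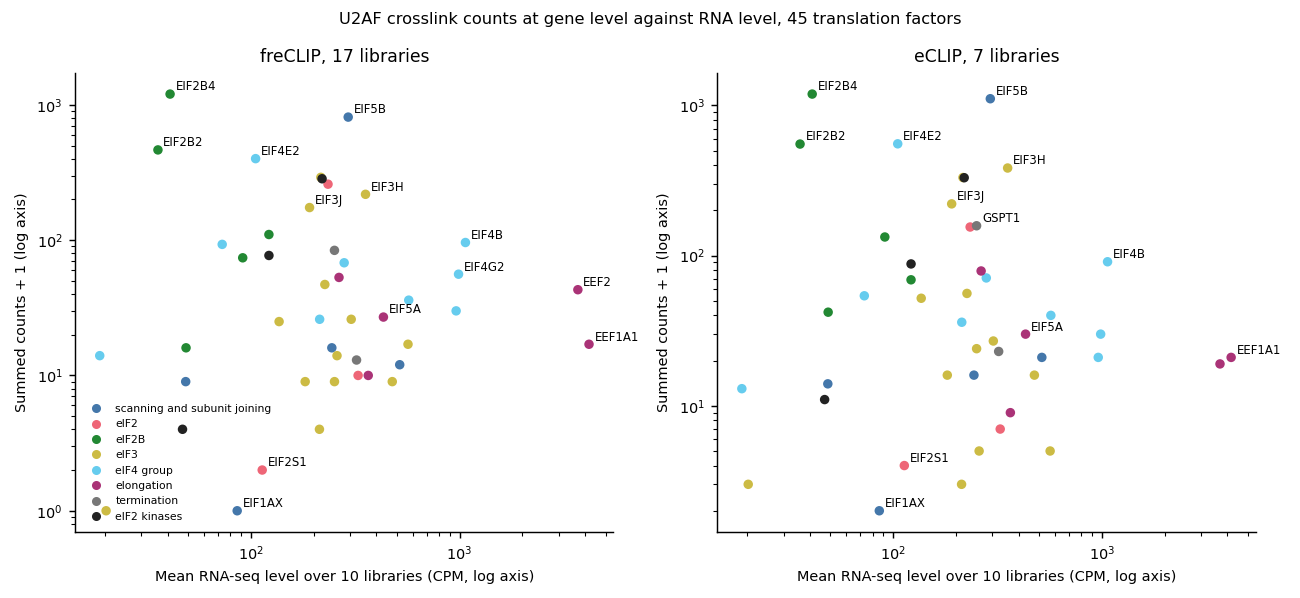
Summed crosslink counts plus 1 against the mean RNA level for 45 translation factors on log axes, freCLIP on the left and eCLIP on the right, coloured by complex. EIF2B4 and EIF2B2 lie at the upper left, with many crosslink counts at a low RNA level. EEF1A1 lies at the far right with 16 freCLIP counts.

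Of the 46 members, 12 passed the filter on low counts in freCLIP, where 6833 entries were tested. No member was called in S34F or Q157R against WT in either fraction by edgeR, where 0.337% (S34F light), 0.132% (S34F heavy), 7.6% (Q157R light) and 0% (Q157R heavy) of entries passed, or by DESeq2, beside 2.12%, 0.629%, 12.2% and 0% in the same order. At an unadjusted threshold of 0.05 there was 1 member in S34F light, higher, and 1 in Q157R heavy, lower, and 0 in the other comparisons, beside 14.2%, 4.07%, 30.7% and 2.18% of entries. The first was EIF3I, with 7 counts over the S34F libraries and 0 over the WT libraries of the light fraction, and the second was EIF3H, with 2 counts in Q157R and 58 in WT of the heavy fraction. Both genes were named after their values were seen. In the heavy fraction EIF2B2 stood at 47.1 to 103 CPM in 4 WT libraries, 145 to 227 in 3 S34F libraries and 138 and 180 in 2 Q157R libraries. The WT libraries lay below all others, but the log2 fold change of S34F against WT was 1.27 ± 0.78 (SE) with an adjusted p of 1. EIF2B4 stood at 281 ± 36.7 CPM (SD, n = 4) in WT, 407 ± 71.4 (n = 3) in S34F and 330 ± 2.12 (n = 2) in Q157R in that fraction, with a log2 fold change in S34F of 0.53 ± 0.48. EIF5B, at 216 ± 24.5, 245 ± 63.1 and 202 ± 120 CPM, had 0.17 ± 0.62. Neither passed the test.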

How the data were processed

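The deposited files hold raw read counts per annotated gene and library, per the file headers and from the whole-number values. The authors' tables end in 4 lines per library for reads that name no gene, and these lines entered neither library sizes nor tests. Per the submitters' processing notes, the tools included STAR (2.5.3a and 2.7.0f) and HISAT2 for alignment, HTSeq and SAMtools, cutadapt, and DESeq2 and edgeR, on GRCh38.p10. The annotation and the strand setting of the counting are not given in the sources used here, so reads of a gene and of an antisense partner may not be told apart. Gene IDs were matched to GENCODE 29 (58084 of 58347 entries), which gave symbols, coordinates on GRCh38 counted from 1, and exon lengths. Of the 43 samples, 34 were used, and the 9 of TL-seq were not analysed here.

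The 10 RNA-seq and the 17 freCLIP libraries were each fitted with edgeR 4.0.16 in R 4.3.3: TMM scaling, filterByExpr with a minimum count of 10, robust quasi-likelihood F test with one mean per group, Benjamini-Hochberg adjustment over all entries tested and a threshold of 0.05. CPM are counts scaled by TMM, and in eCLIP by the library's total alone. Groups with 1 library took the spread of the others. A standard error is the log2 fold change divided by the root of F. As alternatives, fits used a block for the replicate number, DESeq2 1.42.0, relative log expression scaling, no filter, only the compared groups, protein-coding entries only, each library left out, and the longest transcript as length. In RNA-seq all 12 same-numbered pairs of libraries correlated over 0.1 in their deviations from the group means (0.21 to 0.65). With 2 libraries in a group the deviations are equal and opposite, so replicates 1 and 2 give the same value. The 12 values are therefore not independent. On this ground the numbers, which come from the titles, were taken to pair the libraries. In freCLIP 6 of 34 same-numbered pairs correlated over 0.1. The blocked fits with protein-coding entries only and without single libraries were chosen after seeing the data. The scripts were tested on simulated data.

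The members and lists were chosen with earlier results of these data known. Values in each induced WT and S34F library are given for members called in any RNA-seq comparison with or without the block (at most 3 per complex, lowest adjusted p first). The same holds for the most abundant member of each complex. Values in the other libraries are given for some of them. From each list the text names called genes or the 2 most abundant.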

Additional observations from a re-analysis of the deposited data

Results flagged for a closer look

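In the heavy freCLIP fraction of WT cells, 1 of 4 libraries stood apart for EEF2, at 9.33 CPM, against 0 in the other 3. The value rests on 1 count. Where 1 library holds a count and the others none, the rule always sets that library apart, so no rate of chance is given. EEF2 was among 12 members examined.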

How the results depend on the processing

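The edgeR fit with one mean per group called no member in any comparison, and some alternatives did. Pairing the RNA-seq libraries by replicate block gave 24 members in induced S34F against WT, 16 in S34F against Q157R and 14 in S34F induction, all lower. Beside them stand 12.9%, 11.5% and 11% of all entries called lower. DESeq2 gave 9, 3 and 5, beside 7.79%, 6.25% and 8.69% of entries called in either direction. The fit with no filter gave 9, 6 and 10, beside 3.91%, 3.43% and 4.67% called lower. Only the compared groups gave 14 in S34F induction, beside 12.1% called lower. The blocked fit of protein-coding entries gave 12 lower and 2 higher in S34F against WT, beside 12.9% and 12.1% of these entries. In the other comparisons it gave 9 and 8, all lower, beside 12% and 10.9%. Leaving out single libraries, with and without the block, gave 0 to 12 (7 without WT replicate 2 with the block), 0 to 11 and 0 to 11, and 0 to 1 for Q157R against WT in light freCLIP. The block changed no other call. The causes were not tested. Scaling by protein-coding entries turned the log2 fold change in induced S34F against WT positive for EIF2AK1 (0.11), EIF2B4 (0.0054), EIF2B5 (0.077), EIF3F (0.086), EIF4A2 (0.031) and EIF4E2 (0.064), and no filter turned EIF2AK4 to -0.019. Leaving out single libraries gave ranges across zero for EEF1A1 (-0.53 to 0.28), EEF2 (-0.56 to 0.26), EIF1 (-0.95 to 0.24), EIF2AK1 (-0.18 to 0.11), EIF2AK4 (-0.066 to 0.079), EIF2B4 (-0.46 to 0.25), EIF2B5 (-0.41 to 0.36), EIF3E (-0.36 to 0.0073), EIF3F (-0.29 to 0.21), EIF4B (-0.23 to 0.60), EIF4E2 (-0.32 to 0.18) and EIF5 (-0.29 to 0.47). Of 722 alternative values of single genes, 592 kept direction and call, 107 newly passed the threshold and 23 changed sign. With 2 libraries in a group, and 1 in uninduced mutants, small differences could not be resolved.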
